A study of Homo sapiens with 10 samples.

Results

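The kallikrein-related peptidases are secreted serine proteases, and 10 of their genes were described here in 5 human prostate cancer cell lines: KLK1, KLK2, KLK3, KLK4, KLK15, KLK5, KLK6, KLK7, KLK10 and KLK11. The members were taken by gene symbol from a table of 60642 symbols, which were measured by bulk RNA-seq in 10 untreated samples. KLK2, KLK3, KLK4 and KLK15, the kallikreins known to be driven by androgen in the prostate, were set against the rest of the locus. LNCaP (clone FGC), DUCAP and VCAP, which are known to respond to androgen, and DU145 and PC3, which are not, were each grown in phenol-red-free RPMI with fetal bovine serum and harvested in exponential growth, with 2 biological repeats per line. No line was treated with any agent. Each line stands for 1 cultured population from 1 tumour, and DUCAP and VCAP are known to derive from metastases of the same patient, so they do not stand for independent tumours.

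All kallikrein genes lie side by side on chromosome 19 and encode inactive precursors that are secreted and then activated by removal of a short propeptide, often by another kallikrein. In the prostate, KLK3, better known as prostate-specific antigen, cleaves the semenogelins and liquefies the seminal clot, and KLK2 and KLK15 can activate its precursor. Transcription of KLK3 and KLK2 in luminal prostate cells is induced by androgen through response elements in the promoter and in an upstream enhancer, whereas most genes at the other end of the locus are better known from skin and other epithelia.

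In the RefSeq annotation of GRCh38.p14, the build that the authors also aligned to, the locus spanned 265 kb from KLK1 (start 50819146) to KLK14 (end 51084210). The order along the chromosome was KLK1, KLK15, KLK3, KLK2, the pseudogene KLKP1, KLK4, KLK5, KLK6, KLK7, KLK8, KLK9, KLK10, KLK11, KLK12, KLK13 and KLK14. KLK3 (chr19:50854915-50860764) and KLK2 (chr19:50873439-50880567) were next to each other, both on the plus strand, with 12.7 kb between the end of the one and the start of the other.

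The 250 bases before the annotated starts of KLK3 (chr19:50854665-50854914, plus strand) and KLK2 (chr19:50873189-50873438, plus strand) are shown because these neighbouring genes had the highest levels of the family and differed most in their order between lines. Capitals mark a match to a loose form of the androgen response element, GNACA followed after 4 bases by GTNC, where N is any base, which was chosen so that it holds the known KLK3 site, and a match to TTATA, a form of the TATA box.
KLK3: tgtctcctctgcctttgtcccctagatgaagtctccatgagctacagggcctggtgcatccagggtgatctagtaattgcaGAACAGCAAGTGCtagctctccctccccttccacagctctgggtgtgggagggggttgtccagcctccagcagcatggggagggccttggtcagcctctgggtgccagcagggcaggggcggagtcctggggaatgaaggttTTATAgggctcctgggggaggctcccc
KLK2: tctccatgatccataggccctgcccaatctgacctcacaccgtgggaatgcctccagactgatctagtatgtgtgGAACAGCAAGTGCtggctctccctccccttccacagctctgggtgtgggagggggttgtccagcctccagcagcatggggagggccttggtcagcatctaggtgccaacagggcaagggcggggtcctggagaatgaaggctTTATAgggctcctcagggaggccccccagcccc
The 2 stretches matched at 86.1% of 238 aligned bases and shared an unbroken run of 80 identical bases. The other pairs among KLK2, KLK3, KLK4 and KLK15 matched at 57.9 to 60.1%, with shared runs of 8 to 10 bases. For KLK4 and KLK15, which have 2 listed starts each, only the first listed start was aligned. The windows of their other starts were not compared. The response element match had the same letters in both genes and began 169 bases before the start of KLK3 and 175 bases before that of KLK2. Both strands were searched. It was found in the 250-base windows of 1.81% of 35116 annotated starts and in none of the windows listed for KLK4, KLK15, KLK5, KLK6, KLK7, KLK10 and KLK11. TTATA began 27 bases before the start of KLK3 and 33 bases before that of KLK2, did not overlap the other match, and was found in 18.9% of all windows. It was also found near a start of KLK4, KLK15, KLK5 and KLK7, for KLK4 and KLK15 only before the start that was not aligned. A match describes the letters in the window and not a bound site. No promoter entry was found for KLK1.

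The values were TPM from RSEM, in which reads are divided by transcript length and scaled to a common total per sample, so levels of different genes within a sample can be set side by side. TPM keep no sequencing depth, and the precision of a value rests on the 2 repeats of a line. Mitochondrial genes held between 12.7 and 36.0% of the TPM, with the highest shares in DUCAP and VCAP. The epithelial markers KRT8, KRT18, EPCAM and CDH1 were at 3.78 TPM or higher in every sample. Of the 11 leukocyte, endothelial and stromal markers, CD3E was listed at 0 in all 10 samples, and only CD14 (1.43 TPM in DU145 repeat 1) and VWF (5.45 and 4.22 TPM in LNCaP) reached 1 TPM. ERG, the gene activated by rearrangement in DUCAP and VCAP, lay between 122 and 199 TPM in these lines and at most at 0.19 TPM in the others.

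KLK2, which encodes a trypsin-like protease that activates the KLK3 precursor, had 8172 and 4821 TPM in the VCAP repeats and 2482 and 2331 TPM in the DUCAP repeats. It had 180 and 245 TPM in LNCaP. In DU145 it had 0 and 0.13 TPM, and in PC3 0 and 0.19 TPM. VCAP was the highest line and LNCaP the lowest of the 3 in which the gene was clearly detected, with no overlap between the repeats of any of these 3 lines.

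KLK3, the gene of prostate-specific antigen, followed another order. It had 2625 and 2583 TPM in DUCAP, 1636 and 1904 TPM in LNCaP, and 45.3 and 28.3 TPM in VCAP. The DU145 values were 0.06 and 0.52 TPM and the PC3 values 0.77 and 0.11 TPM. The lowest VCAP value still exceeded every DU145 and PC3 value, but VCAP lay far below the other androgen-responsive lines for KLK3 while it lay above them for KLK2.

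KLK4, a trypsin-like protease of the prostate that is also known for its part in enamel maturation, had the smallest ratio between the highest and the lowest mean of the 3 lines, at 2.22. It had 192 and 218 TPM in LNCaP, 82.6 and 102 TPM in DUCAP, and 138 and 103 TPM in VCAP. DU145 had 0.25 and 0.03 TPM. PC3 had 2.04 and 6.57 TPM, which made KLK4 the only listed kallikrein to reach 1 TPM outside LNCaP, DUCAP and VCAP.

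KLK15, which can activate the KLK3 precursor in the test tube, was low in every line. It had 3.62 and 3.14 TPM in LNCaP, 1.31 and 0.63 TPM in DUCAP and 2.01 and 1.32 TPM in VCAP. DU145 had 0.42 and 0.06 TPM, and both PC3 repeats were listed at 0. The lowest value of the 3 lines, in DUCAP repeat 2, lay close to the highest of DU145. The pseudogene KLKP1, between KLK2 and KLK4, had 7.17 and 7.13 TPM in LNCaP, 0.98 and 0.72 TPM in DUCAP, 2.63 and 0.65 TPM in VCAP, and was listed at 0 in all DU145 and PC3 samples.

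**Figure D1:**
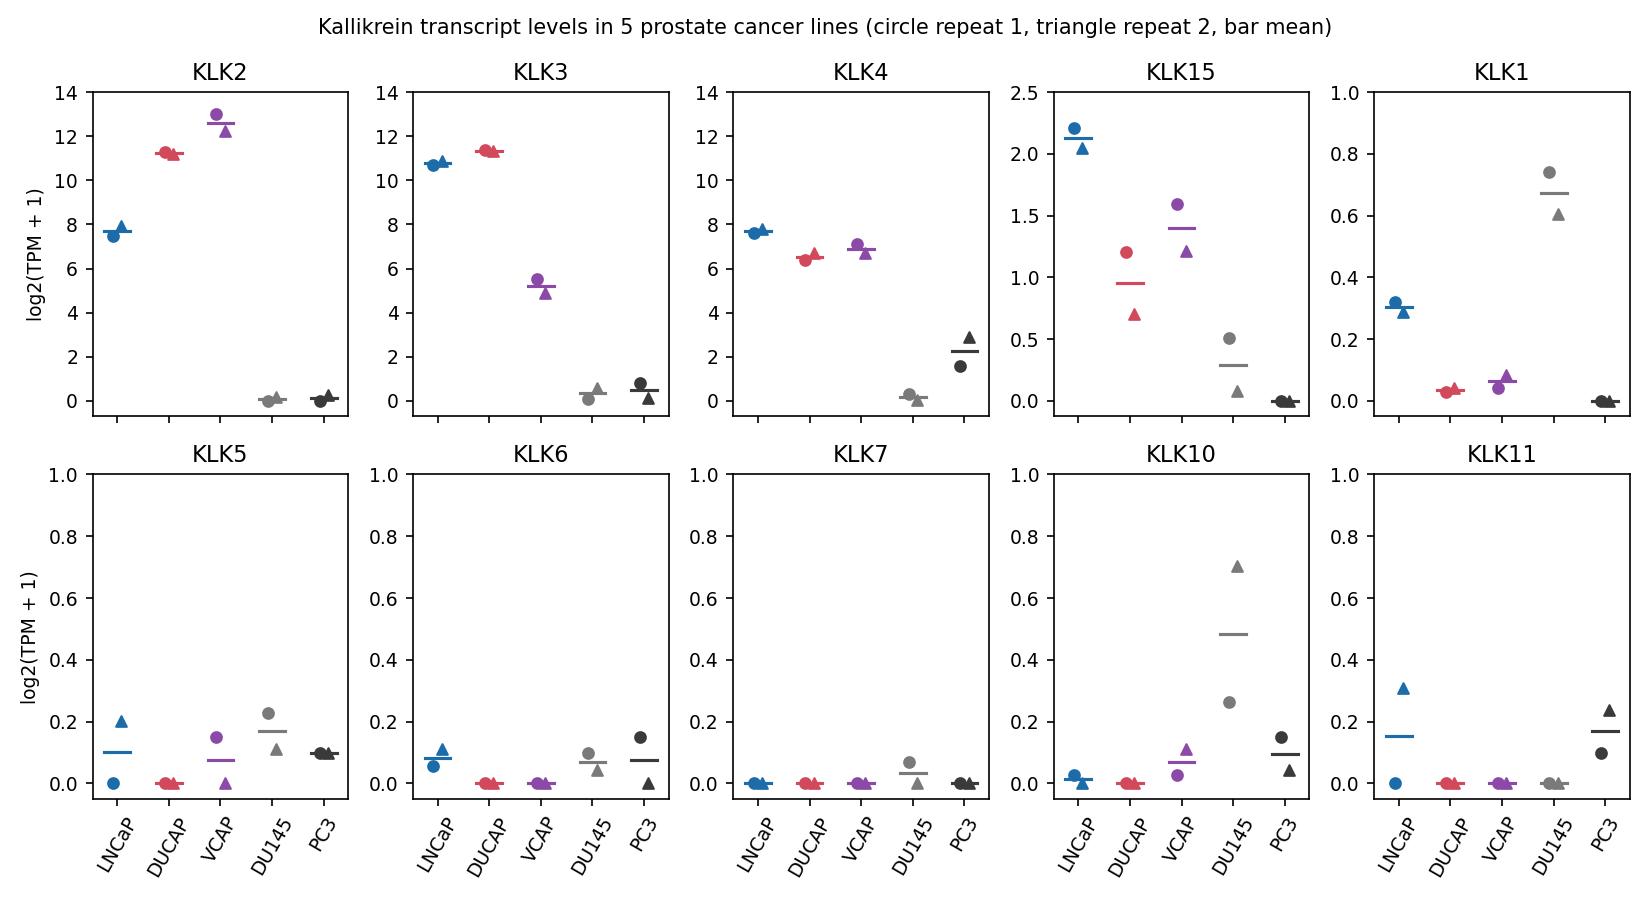
Each panel plots 1 of the 10 kallikreins, with the line on the horizontal axis and log2(TPM + 1) on the vertical axis. Circles are repeat 1, triangles repeat 2 and bars the mean of both, and the scales differ between panels: KLK2 rises from LNCaP to DUCAP to VCAP, KLK3 is high in LNCaP and DUCAP and much lower in VCAP, and the remaining 6 members stay at or under 0.67 TPM.

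The remaining 6 members were at or near 0 throughout. Of their 60 values, 30 were listed at 0, none reached 1 TPM and the highest was 0.67 TPM. That value belonged to KLK1, the tissue kallikrein that releases kinins from kininogen, in DU145. KLK1 had 0.67 and 0.52 TPM in DU145, 0.25 and 0.22 TPM in LNCaP, at most 0.06 TPM in DUCAP and VCAP, and 0 in both PC3 repeats. KLK10 had its highest values in the same line, at 0.20 and 0.63 TPM in DU145, against 0.11 TPM or less in every other sample.

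KLK5 and KLK7, which act together in the shedding of the outer skin layer, reached at most 0.17 and 0.05 TPM. KLK6, which is best known from the nervous system, reached 0.11 TPM, and KLK11 reached 0.24 TPM. Of the 5 kallikreins of the locus outside the listed 10, KLK9 was listed at 0 in every sample, KLK8 reached 0.82 TPM in DU145, and KLK14 was the only one to reach 1 TPM, with 1.07 TPM in VCAP repeat 1. The levels above 10 TPM in the locus belonged to KLK3, KLK2 and KLK4, which lie with KLK15 and KLKP1 toward its KLK1 end. In bulk samples, fewer cells that express a gene and less RNA per cell cannot be told apart.

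**Figure D2:**
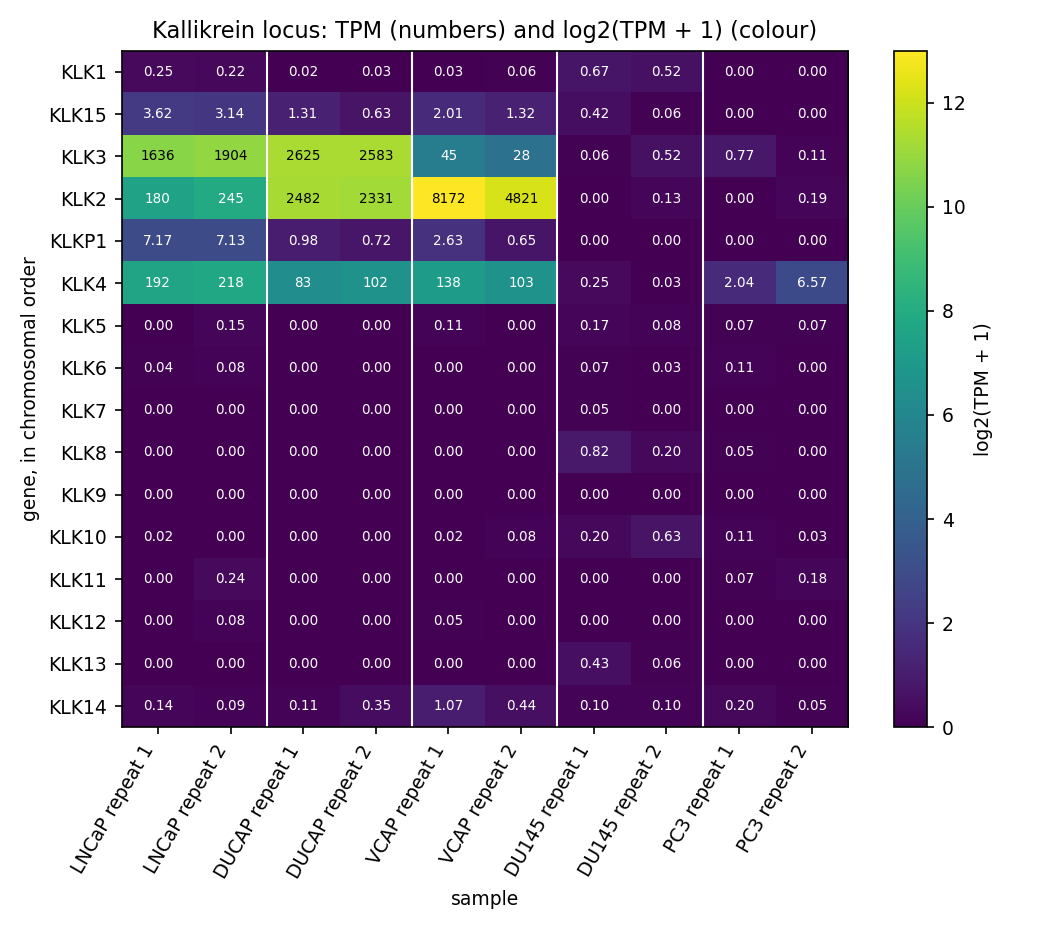
Rows are the 15 kallikrein genes and the pseudogene KLKP1 in their order along chromosome 19, columns are the 10 samples, numbers are TPM, and colour is log2(TPM + 1). High values fill a block of KLK3, KLK2 and KLK4 in LNCaP, DUCAP and VCAP, whereas the rows from KLK5 to KLK14 stay at or under 1.07 TPM.

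The differences between lines were tested on log2(TPM + 1) with limma over the 17520 genes that reached 1 TPM in 2 or more samples, of which 4 were members. The other 6 members did not pass this filter and were not tested. KLK2, KLK3 and KLK15 passed it only through LNCaP, DUCAP and VCAP, and KLK4 also through PC3, so the direction of the comparison of these lines with DU145 and PC3 was in part fixed by the filter. Because 1 TPM was added before the logarithm, fold changes of genes near 0 come out too small. The p-values speak of the spread between 2 repeats of each of these lines.

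The first comparison asked how the kallikreins of LNCaP, DUCAP and VCAP differed from those of DU145 and PC3. KLK2 was higher by 10.42 on the log2 scale (SE 0.16, adjusted p = 2.63e-09 from limma), KLK3 by 8.70 (SE 0.19, adjusted p = 9.17e-09) and KLK4 by 5.82 (SE 0.24, adjusted p = 1.97e-07). The difference was smaller for KLK15, at 1.35 (SE 0.14, adjusted p = 4.04e-05). Of all tested genes, 74.4% were called in either direction, 22.5% higher and 51.9% lower. Because of the filter, nothing is read from the number of members called higher here. The median of all tested genes was −0.40 in this comparison, and it moved to 0.08 after quantile normalization and to −0.01 after median-ratio scaling. Of the genes called, 30.2% were higher, against 53.8% after quantile normalization, 48.7% after median-ratio scaling and 39.4% without the mitochondrial genes. Over the other settings, KLK2 lay between 10.22 and 13.16, KLK3 between 8.70 and 10.55, KLK4 between 5.82 and 7.19 and KLK15 between 1.35 and 3.43, with each highest value at a pseudocount of 0.1. With each sample left out, KLK4 lay between 5.49 and 6.15, with the lowest value without PC3 repeat 1.

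**Figure D3:**
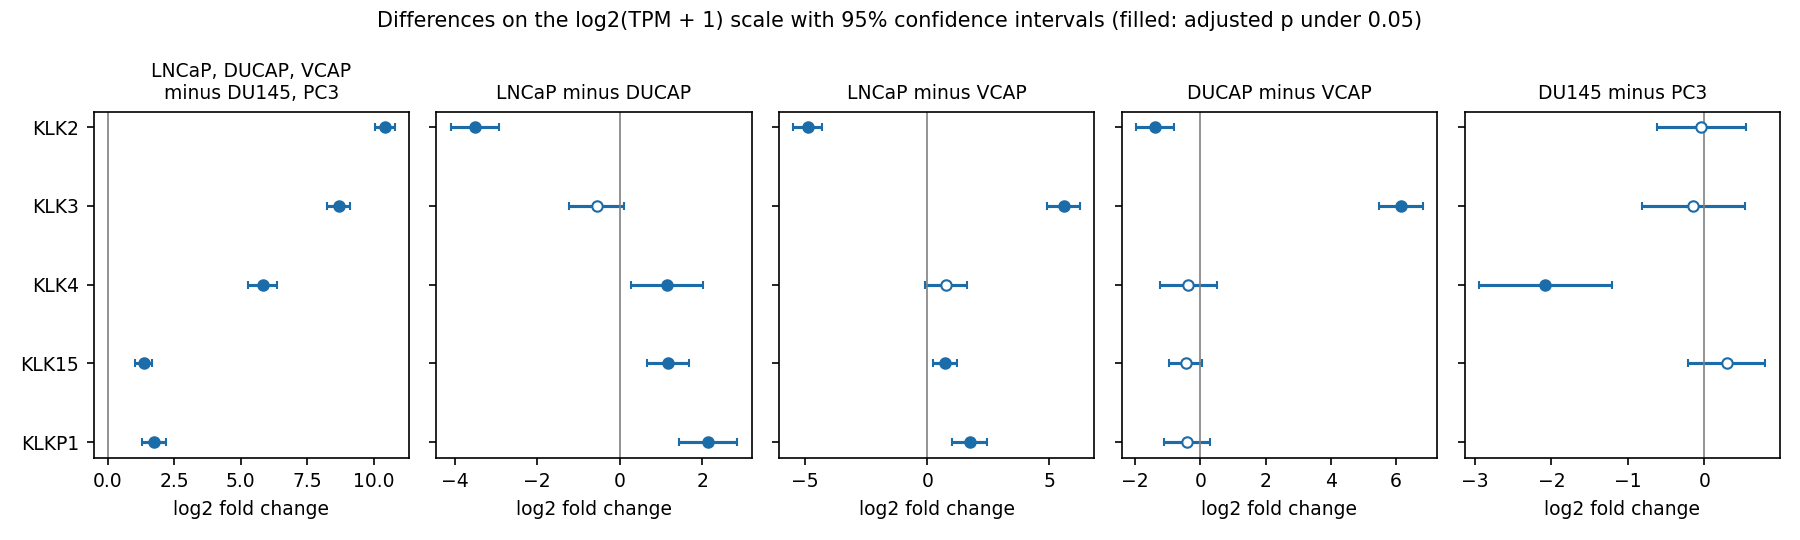
Each panel is 1 comparison, with the log2 fold change of log2(TPM + 1) on the horizontal axis and the 4 tested kallikreins and KLKP1 on the vertical axis. Points are limma estimates, bars are 95% confidence intervals and filled points have an adjusted p under 0.05: KLK3 lies right of 0 and KLK2 left of 0 in both comparisons with VCAP, and KLKP1, listed at 0 in DU145 and PC3, has no point in the last panel.

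DUCAP and VCAP differed in KLK2 and KLK3 in opposite directions. KLK3 was 6.14 higher in DUCAP on the log2 scale (SE 0.29, adjusted p = 1.05e-05 from limma), which corresponded to 70.8 times the mean TPM of VCAP. KLK2 was −1.38 in the same comparison (SE 0.25, adjusted p = 0.00780), with the mean TPM 2.70 times higher in VCAP. These 2 of the 4 tested members stood beside 18.3% of all tested genes. The call of KLK2 was lost with a pseudocount of 0.1 (adjusted p = 0.114), without DUCAP repeat 1 (0.0511) and without DUCAP repeat 2 (0.0538), with its direction kept in each. KLK4 (−0.37, 95% interval −1.24 to 0.50) and KLK15 (−0.45, 95% interval −0.95 to 0.06) did not pass the test, and neither did the pseudogene KLKP1 (−0.41, 95% interval −1.11 to 0.30).

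KLK2 and KLK3 are close relatives, and whether reads of the one were assigned to the other was not tested, since the reads were not used here. The low KLK3 and high KLK2 values of VCAP, and the shares and ratios made from them, are therefore those of the authors' quantification. The longest identical stretch between their 23 and 15 annotated transcripts was 60 bases. The models KLK2-201 and KLK3-201 matched at 82.6% of 1432 aligned bases. When the TPM of both genes were added, DUCAP and VCAP differed by −0.33 on the log2 scale (95% interval −1.01 to 0.34, adjusted p = 0.510 from limma). The sums were 5107 and 4915 TPM in DUCAP and 8217 and 4849 TPM in VCAP, so that the sums of the lines overlapped while the separate genes did not.

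LNCaP and DUCAP differed in KLK2, whereas KLK3 was not called on the deposited scale, although its repeats did not overlap. KLK2 was −3.51 in LNCaP against DUCAP on the log2 scale (SE 0.25, adjusted p = 1.09e-05 from limma), with 11.3 times the mean TPM in DUCAP. KLK3 was −0.56 (95% interval −1.23 to 0.11, adjusted p = 0.131), but after median-ratio scaling it was −1.33 with an adjusted p of 0.00333. KLK15 was 1.17 higher in LNCaP (SE 0.22, adjusted p = 0.00185) and KLK4 1.14 higher (SE 0.38, adjusted p = 0.0284), which gave 3 of the 4 tested members beside 60.7% of all tested genes. KLK15 lost its call after quantile normalization (0.53, adjusted p = 0.0630). KLK4 lost its call in 5 of the 8 alternative settings, with the smallest value of 0.38 after median-ratio scaling, and without any 1 of the LNCaP or DUCAP samples (adjusted p between 0.0613 and 0.140). The median of all tested genes was 0.55 in this comparison, and 0 after quantile normalization.

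Against VCAP, LNCaP differed in both genes, with KLK3 higher and KLK2 lower in LNCaP. KLK3 was 5.58 higher in LNCaP (SE 0.29, adjusted p = 2.16e-06 from limma) and KLK2 was −4.90 (SE 0.25, adjusted p = 2.10e-06). The mean TPM were 48.1 times higher in LNCaP for KLK3 and 30.6 times higher in VCAP for KLK2. KLK15 was 0.73 higher in LNCaP (SE 0.22, adjusted p = 0.0199), a call that was lost with a pseudocount of 0.1, after quantile normalization, after median-ratio scaling (0.33, adjusted p = 0.281), without the mitochondrial genes, and without LNCaP repeat 1, LNCaP repeat 2 or VCAP repeat 2 (adjusted p between 0.0523 and 0.124). These 3 members stood beside 60.1% of all tested genes, whose median was 0.38. KLK4 differed by 0.78 (95% interval −0.09 to 1.65, adjusted p = 0.109), with adjusted p of 0.0146 and 0.0149 when PC3 repeat 1 or PC3 repeat 2, which differ in KLK4, was left out. KLKP1 was higher in LNCaP than in either other line, by 2.14 against DUCAP (SE 0.31, adjusted p = 0.000419) and 1.74 against VCAP (SE 0.31, adjusted p = 0.00137). KLKP1 passed the filter only through LNCaP and VCAP repeat 1, so these directions were in part fixed.

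DU145 and PC3 differed in KLK4, which was −2.08 in DU145 against PC3 (SE 0.38, adjusted p = 0.00225 from limma), the only called member beside 49.3% of all tested genes. The PC3 repeats differed from each other by −1.32 on the log2 scale, a gap reached by 0.502% of tested genes. The KLK4 difference was −2.74 without PC3 repeat 1, −1.42 without PC3 repeat 2 and −4.15 with a pseudocount of 0.1, and it was called in each. KLK2 (−0.04), KLK3 (−0.14) and KLK15, which was listed at 0 in PC3, did not pass the test. The order of levels was thus VCAP, DUCAP, LNCaP for KLK2, with PC3 and DU145 not separated. For KLK3 it was DUCAP and LNCaP, not separated on the deposited scale, then VCAP, then PC3 and DU145. For KLK4, LNCaP, VCAP and DUCAP were followed by PC3 and then DU145. Among the first 3, only LNCaP against DUCAP was called with all samples, and this call was lost under other scalings.

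The make-up of the family was compared within samples, where the scaling between samples has no effect on shares and ratios. The summed kallikrein TPM, which depend on that scaling, were 2012 and 2372 in LNCaP, 5191 and 5018 in DUCAP and 8359 and 4953 in VCAP. They were 2.36 to 7.20 in DU145 and PC3. KLK3 held 81.3 and 80.3% of the sum in LNCaP, 50.6 and 51.5% in DUCAP and 0.541 and 0.572% in VCAP. KLK2 held 8.93 and 10.3% in LNCaP, 47.8 and 46.5% in DUCAP and 97.8 and 97.3% in VCAP. LNCaP transcripts of the family were thus mainly KLK3, VCAP transcripts almost entirely KLK2, and DUCAP transcripts a nearly even mixture. With 2 samples against 2, no exact test can pass a threshold of 0.05, so these shares are a description.

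**Figure D4:**
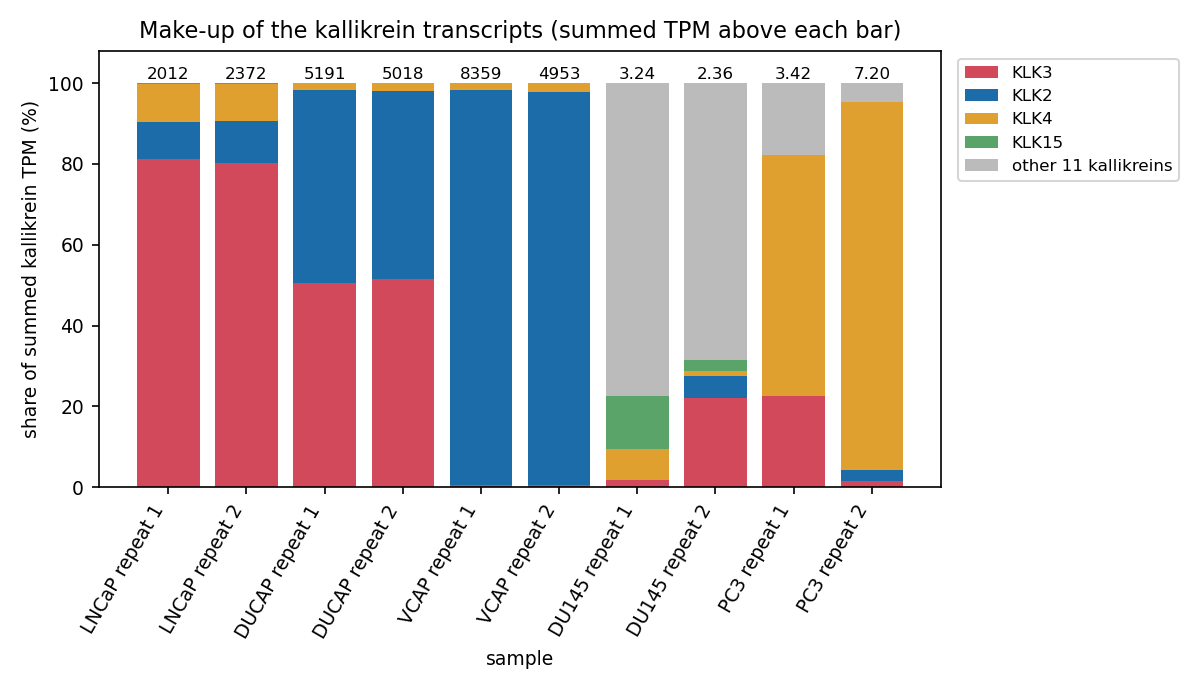
Each bar is 1 sample and shows the share (%) of the summed TPM of the 15 kallikreins held by KLK3, KLK2, KLK4, KLK15 and the other 11, with the summed TPM above the bar. KLK3 fills most of the LNCaP bars, KLK2 nearly all of the VCAP bars, and the DU145 and PC3 bars divide sums of at most 7.20 TPM.

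For each KLK3 transcript in TPM there were 0.110 and 0.129 of KLK2 in LNCaP, whereas the ratio was 0.946 and 0.902 for the DUCAP repeats and 181 and 170 for those of VCAP. The VCAP repeats differed from each other in the amount of each gene and not in this ratio: KLK2 was 1.70 times, KLK3 1.60 times, KLK4 1.34 times and KLK15 1.52 times as high in repeat 1. A difference between the VCAP repeats as large as that of KLK2 was seen for 4.97% of tested genes. Among transcripts outside the mitochondrial genome, KLK2 was the number 2 gene in VCAP repeat 1 and number 10 in repeat 2. KLK3 was number 40 and 44 in DUCAP, number 69 and 60 in LNCaP, and number 2072 and 3368 in VCAP. The share of KLK4 was 9.54 and 9.20% in LNCaP and between 1.59 and 2.07% in DUCAP and VCAP.

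Other genes known to act on or with kallikreins were described from 4 lists. Of 8 proteases that can activate other secreted proteases or act on the same substrates, 6 were tested, and 3 were higher and 3 lower in LNCaP, DUCAP and VCAP than in DU145 and PC3 (adjusted p under 0.05 from limma). The membrane-bound proteases TMPRSS2 (84.5 to 299 TPM in the 3 lines against 0.11 to 22.7 TPM), hepsin (HPN, 8.26 to 119 against 0 to 1.64 TPM) and matriptase (ST14, 76.1 to 111 against 0.48 to 13.6 TPM) were higher. The plasminogen activators PLAU (at most 0.12 TPM against 362 to 788 TPM) and PLAT (0.03 to 0.66 against 1.45 to 242 TPM) and the lysosomal peptidase CTSC (0 to 8.85 against 57.1 to 183 TPM) were lower. HPN passed the filter only through the 3 lines, and PLAU and PLAT only through DU145 and PC3, so their directions were in part fixed. The median log2 fold change of these 6 genes was −0.01, against −0.40 for all tested genes.

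Among 15 protease inhibitors, 7 passed the filter, with 2 higher, 4 lower and 1 not called, close to the shares of all tested genes (22.5% higher and 51.9% lower). SPINK5, an inhibitor of skin kallikreins, had 3.80 to 5.23 TPM in DUCAP and VCAP and 0.02 TPM in both LNCaP repeats, against 0.24 to 1.54 TPM in DU145 and PC3. It passed the filter only through DUCAP and VCAP, so its direction was in part fixed. SERPINA1 (118 and 163 TPM) and WFDC2 (12.2 and 38.4 TPM) were lower in the 3 lines, with their high values in DU145 alone. SERPINA3 and SERPINA5, the serpins that bind KLK3 and KLK2 in plasma and seminal fluid, did not pass the filter and reached at most 1.07 and 0.09 TPM. The median of the 7 tested inhibitors was −0.68.

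Among 16 substrates and receptors, 11 passed the filter, with 2 higher and 9 lower in the 3 lines and a median of −2.40, beside 22.5% higher and 51.9% lower and a median of −0.40 for all tested genes. TGFB1 (0.01 to 0.38 TPM in the 3 lines against 54.0 to 64.8 TPM), TGFB2 (0.03 to 0.65 against 6.48 to 28.8 TPM) and PTHLH (at most 0.14 against 1.20 to 34.6 TPM) fell the most. The filter was passed by TGFB1, TGFB2, PTHLH and IGFBP5 only through DU145 or PC3, and by KNG1 and BDKRB1 only through LNCaP. Their directions were thus in part fixed, and nothing is read from the counts or the median of this list. KNG1, which encodes kininogen, and the kinin receptor gene BDKRB1 were higher, with log2 fold changes of 0.61 and 0.33 and at most 1.56 TPM in any sample. Their high values were in LNCaP alone. KNG1 had 1.56 and 1.41 TPM there and at most 0.26 TPM in DUCAP and VCAP. BDKRB1 had 1.07 and 1.02 TPM in LNCaP and at most 0.12 TPM in DUCAP and VCAP, against at most 0.14 TPM in DU145 and PC3. The semenogelin genes SEMG1 and SEMG2, whose proteins are the main substrates of KLK3 in semen, reached at most 0.07 and 0.05 TPM in these lines.

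Of 8 transcription factors that are known to act at prostate kallikrein genes, 7 were higher and 1 was lower in the 3 lines, with a median log2 fold change of 1.73, beside 22.5% higher and 51.9% lower of all tested genes. SPDEF counted as higher (0.84) although PC3, at 133 and 154 TPM, exceeded every value of the 3 lines (49.7 to 95.2 TPM). GRHL2, an epithelial factor, had 33.3 to 48.0 TPM in the 3 lines against at most 0.09 TPM in DU145 and PC3, and GATA2 had 106 to 181 TPM against 9.25 to 14.9 TPM. GRHL2 passed the filter only through the 3 lines, so its direction was in part fixed. NR3C1, the glucocorticoid receptor, was the lower one, at 0.20 to 2.25 TPM against 10.1 to 52.3 TPM. HOXB13 also counted as higher (2.35), although PC3, at 328 and 502 TPM, exceeded every value of the 3 lines (52.1 to 201 TPM). In DU145 it was near 0, at 0.03 and 0.02 TPM. None of the 8 had an order of the lines like that of KLK3, for which VCAP lay far below LNCaP and DUCAP. Between DUCAP and VCAP, 4 of the 8 were called, all higher in VCAP. Most called genes took this direction on the deposited scale. Of all tested genes 18.3% were called, and of these 23.2% were higher in DUCAP, against 50.3% after quantile normalization.

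The genes outside the family whose levels followed each kallikrein most closely were ranked by Pearson's r of log2(TPM + 1) over the 10 samples, which are 5 pairs of repeats and include 4 samples near 0. For KLK3 they were GSTA1, a glutathione transferase (r = 0.983), the cytokine TNFSF15 (0.979), AC138904.1 (0.978), UGT2B15, which conjugates androgens (0.974), and ZNF75A (0.973). UGT2B15 had 22.7 and 26.4 TPM in LNCaP, 37.9 and 35.8 TPM in DUCAP, 8.50 and 10.7 TPM in VCAP and at most 0.22 TPM elsewhere. GSTA1 and UGT2B15 have close paralogs, and how reads were divided among these was not tested. For KLK2 they were CHRNA2 (0.996), a subunit of the nicotinic acetylcholine receptor, SMOC2 (0.995) and HGD (0.995), an enzyme of tyrosine breakdown. HGD rose from 12.6 and 17.6 TPM in LNCaP to 29.6 and 35.4 TPM in DUCAP and 46.3 and 60.1 TPM in VCAP.

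For KLK4 the closest genes were the epithelial transcription factor EHF (0.994), PRKCD (0.992) and IQANK1 (0.988). EHF had 113 to 170 TPM in the 3 lines, at most 0.02 TPM in DU145, and 2.52 and 5.81 TPM in PC3, where KLK4 had 2.04 and 6.57 TPM. For KLK15 they were HPN (0.989), CALML4 (0.987) and CARD14 (0.973). By Spearman's rho, 1 of the 3 genes of KLK15 stayed among its 3 closest, and none of those of KLK2, KLK3 and KLK4 stayed. Among the members themselves, r lay between 0.69 (KLK2 and KLK15) and 0.89 (KLK2 and KLK4), and was 0.76 for KLK2 and KLK3. The closest genes were picked for the highest r among 17515 genes, so their r cannot be set against those between members.

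**Figure D5:**
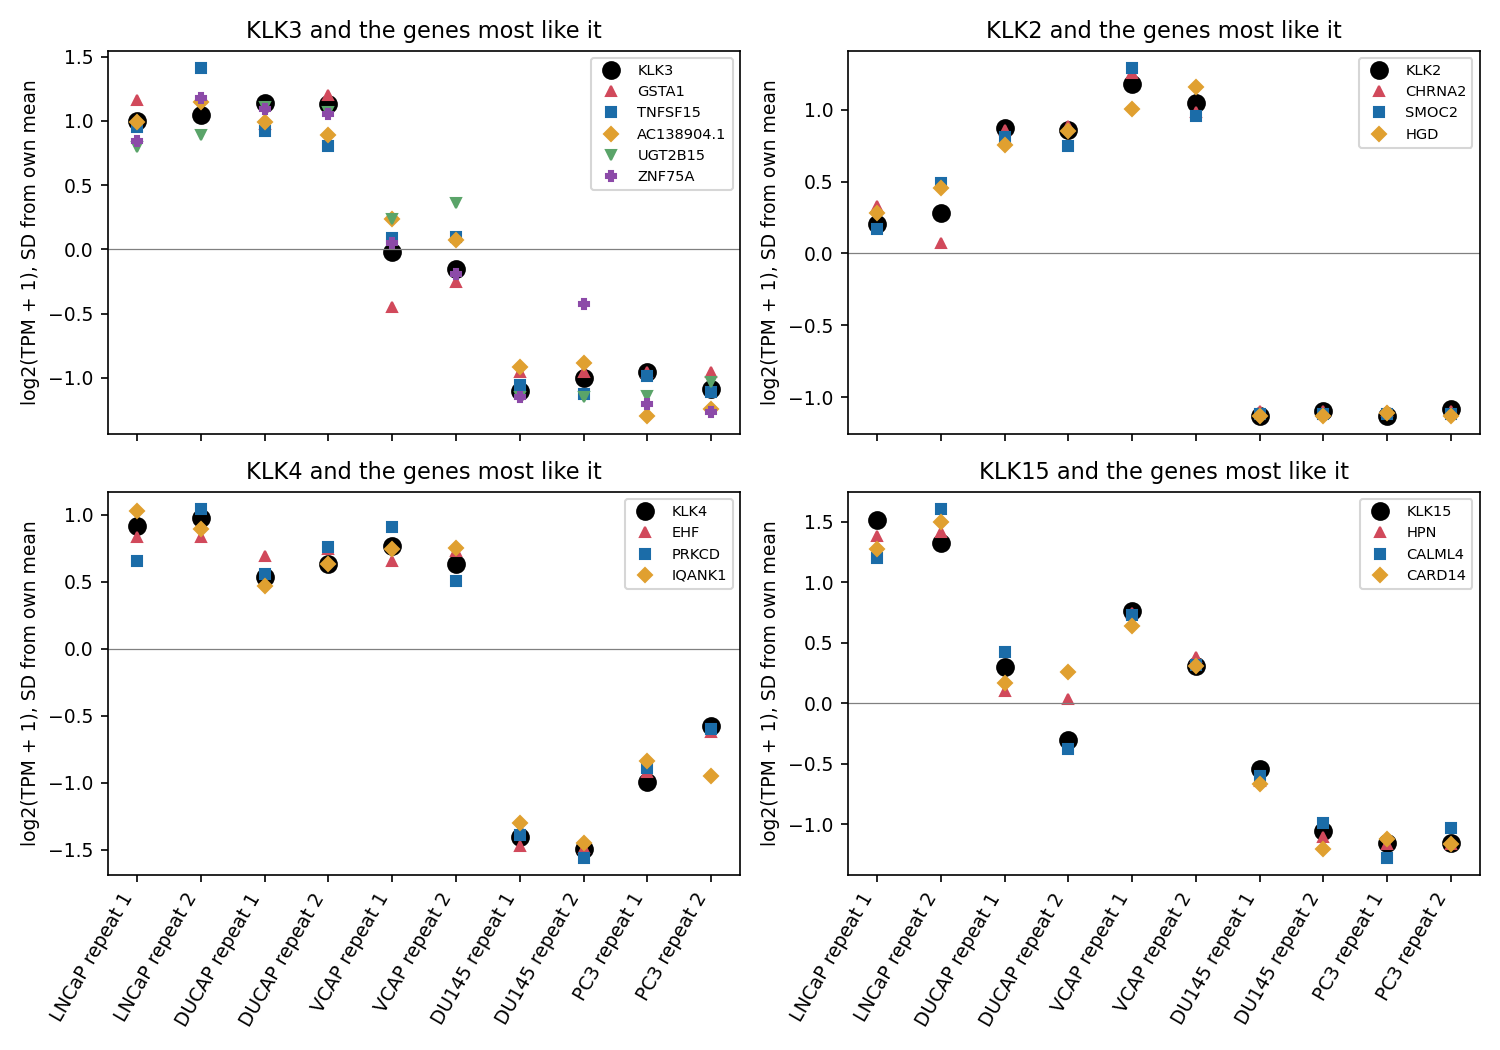
Each panel shows 1 kallikrein (large black circles) and the genes with the highest Pearson's r to it over the 10 samples on the horizontal axis. The vertical axis is log2(TPM + 1) in SDs from each gene's own mean: the genes nearest KLK3 drop in VCAP, and those nearest KLK2 are highest there.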

How the data were processed

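Untreated LNCaP, DUCAP, VCAP, DU145 and PC3 cells were profiled by polyA-enriched, strand-specific bulk RNA-seq, and the line and the repeat (2 for each line) of a sample were taken from the labels. The authors checked reads with FastQC 0.11.9, trimmed them with Trim Galore 0.6.5, aligned them with STAR 2.7.2b to GRCh38 and quantified genes with RSEM 1.3.3, as named in the methods and the submitters' processing notes. They deposited TPM for 60642 symbols, with no scaling between samples stated. Depth cannot be read from TPM, so no counting interval or floor was computed.

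The 17520 genes that reached 1 TPM in 2 or more samples were tested on log2(TPM + 1) with limma 3.58.1 in R 4.3.3, in 1 fit with a coefficient per line, a variance trend and Benjamini-Hochberg adjustment at 0.05. The calculation was tested on simulated data. Shares, ratios and repeat differences were computed from TPM in Python 3.11.15. Alternatives were another pseudocount, no filter, quantile normalization, median-ratio scaling, removal of 37 mitochondrial genes, no trend, the repeat number as a block, KLK2 and KLK3 summed, and each sample left out.

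Named genes were the 10 members, the rest of the locus and the 3 closest genes by Pearson's r (5 for KLK3). The 3 nearest tested protein-coding genes on each side and the largest changes of 4 lists were also named. HOXB13, SPDEF, SERPINA3, SERPINA5, SEMG1 and SEMG2 were named for their known role after their values had been seen. One list had 10 genes, of which 8 are reported here. Members and lists were chosen with earlier results of these data known. Promoters and positions came from RefSeq tables of GRCh38.p14. Transcript sequences came from GENCODE models placed on GRCh37, from which no position was taken. Protein sequences were not used here.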

Additional observations from a re-analysis of the deposited data

How the results depend on the processing

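KLK2 and KLK3 kept their directions among LNCaP, DUCAP and VCAP under each alternative that fitted them separately. The direction of the 3 lines against 2 was in part fixed by the filter and says nothing about stability. The number of members called moved by over 1.5 times in 6 fits, whose cause was not tested beyond the construction of each setting. LNCaP against DUCAP gave 1 call (KLK2) after quantile normalization, in place of 3. DUCAP against VCAP gave 1 call (KLK3) with a pseudocount of 0.1, 0 calls with KLK2 and KLK3 summed (limma, 0 at an unadjusted p under 0.05), and 1 to 2 calls with each sample left out (1 without DUCAP repeat 1 and 1 without DUCAP repeat 2), in place of 2. DU145 against PC3 gave 2 calls (KLK1 and KLK4) without the filter, in place of 1. With each sample left out, the other counts were 4 to 4 for the 3 lines against 2, 2 to 3 for LNCaP against DUCAP, 2 to 4 for LNCaP against VCAP and 1 to 1 for DU145 against PC3. Small differences that were not called changed sign: KLK2 (−0.16 to 0.088) and KLK3 (−0.48 to 0.19) between DU145 and PC3, and KLKP1 between DUCAP and VCAP (−0.98 to 0.16, called at −0.98 without VCAP repeat 2). Of the 11 closest genes other than those of KLK15, 0 remained by Spearman's rho.

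The repeat numbers are shared by all lines, but no label ties samples with the same number. The sample names of DU145 and PC3 carry another numbering, which was not used. Over the 10 pairs of lines, same-numbered samples deviated from their lines with r between −0.191 and 0.249 and on average 0.00922, so the samples were treated as unpaired. Among DUCAP, VCAP and DU145, r was positive in each pair (0.180 to 0.249), and whether these samples shared a batch was not tested. With the replicate block, the members called were 4, 3, 3, 2 and 1 in the 5 comparisons, as without it, and 13007 of all tested genes were called between the 3 lines and 2, against 13033. The limits are the 2 repeats per line, the unknown depth and the dependence on the scaling of some calls among LNCaP, DUCAP and VCAP. These were calls of KLK4 and KLK15, and of KLK3 between LNCaP and DUCAP.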

Other observations

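The tested protein-coding genes nearest to the kallikrein locus did not follow the order of the kallikreins, and noncoding genes nearby were not examined. The 3 nearest on each side were SYT3, C19orf81 and CLEC11A before KLK1 and CTU1, VSIG10L and ETFB after KLK14. In every one, the values of LNCaP, DUCAP and VCAP overlapped those of DU145 and PC3. CLEC11A, a secreted growth factor gene, had 20.8 and 21.4 TPM in LNCaP, at most 0.47 TPM in DUCAP and VCAP, and 2.44 to 3.59 TPM in DU145 and PC3. ETFB, a mitochondrial electron carrier gene, had 271 and 250 TPM in LNCaP, 24.8 to 46.1 TPM in DUCAP and VCAP, and 65.7 to 213 TPM in DU145 and PC3. CTU1, the nearest at 13.4 kb from KLK14, lay between 1.06 and 5.13 TPM in all samples. The others were farther away, from 93.4 kb (CLEC11A) to 261 kb (ETFB).

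Without the filter on low values, 3 kallikreins that are below it in the report passed the limma test in at least 1 comparison, each with a small difference. Of all 32724 genes tested in this way, 15931 were called in the 3 lines against 2 and 11776 in LNCaP against DUCAP. The other counts were 12054 in LNCaP against VCAP, 3034 in DUCAP against VCAP and 9643 in DU145 against PC3. The number of kallikreins that passed is therefore not read as a result about the family. KLK1 was −0.20 on the log2 scale in LNCaP, DUCAP and VCAP against DU145 and PC3 (adjusted p = 0.00175), passed between DU145 and PC3, where it was listed at 0 (0.000117), and was 0.27 in LNCaP against DUCAP (0.00509) and 0.24 in LNCaP against VCAP (0.00819). KLK10 was −0.26 in the 3 lines against 2 (0.0365). KLK14 was −0.63 in LNCaP against VCAP (0.0290), with 1.07 and 0.44 TPM in VCAP. The other kallikreins below the filter did not pass in any of the 5 comparisons.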
